A study of Homo sapiens with 2 samples.

Results

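The 9 genes described here drive non-small cell lung cancer through a kinase or through RAS, and the question was where HNRNPK, a nuclear protein that binds RNA and DNA, gave ChIP-seq peaks in and around them. They are EGFR, ERBB2, MET, ALK, RET, ROS1, NRAS, BRAF and FGFR1, listed by name as known drivers, with earlier results of these data known, and all 9 were found among 20037 protein-coding genes on the chromosomes. A peak was assigned to a gene when it overlapped by at least 1 bp the RefSeq GRCh38 span of the gene or the 10 kb to either side, together called the window. The windows of the 9 genes held 12 peaks of the 22351 in the list (0.0537%), 11 in the genes themselves and 1 outside them. The study looked for factors that control the chloride channel gene CLCN3 in lung adenocarcinoma. Chromatin of untreated H1299 cells, a line labelled as lung adenocarcinoma, was precipitated with an HNRNPK antibody (IP), and an input without antibody was sequenced beside it. There was 1 library of each, so the values carry no replicate error and intervals cover counting error only.

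Receptor tyrosine kinases sit in the cell membrane, pair up when a ligand binds and phosphorylate each other, which recruits adaptors that load RAS with GTP. RAS then switches on the RAF kinases, which activate MEK and ERK and drive growth and division. In lung adenocarcinoma the chain is often locked on by mutation, by extra gene copies or by a fusion that joins the kinase to a partner gene, and H1299 cells are known to carry an activating NRAS mutation. HNRNPK prefers stretches rich in C in single-stranded RNA or DNA.

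Of the 9 driver genes, 5 had at least 1 peak in the window (55.6%), and 43.8% of all protein-coding genes did. A peak with an FDR, the false discovery rate given by the peak caller, under 0.05 was present in 1 of the 9, ALK, and in 10.9% of all protein-coding genes. ALK had 7 peaks, RET had 2, and EGFR, ERBB2 and MET had 1 each. ROS1, NRAS, BRAF and FGFR1 had 0. Both shares were near those of all genes for a list of this size, with a Wilson 95% interval of 26.7% to 81.1% around the first.

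None of the peaks lay on a promoter. The promoter table of RefSeq held 11 starts of 8 of the genes, all but FGFR1, and 0 of the 11 stretches of 250 bases before a start overlapped a peak. Over all listed starts 532 of 35116 (1.51%) did, so 11 starts are too few for the 0 to set these genes apart. The 3 starts nearest to a peak are shown because they are the closest that the data come to a promoter of these genes. Capitals mark GCGAGG, a motif that the authors took from these peaks, and CCCTCCC, a C-rich run, or the reverse complements CCTCGC and GGGAGGG. Sequences are from RefSeq (GRCh38.p14) and run 5′ to 3′ on the strand of the gene.
ALK, first start, chr2:29921587-29921836, minus strand: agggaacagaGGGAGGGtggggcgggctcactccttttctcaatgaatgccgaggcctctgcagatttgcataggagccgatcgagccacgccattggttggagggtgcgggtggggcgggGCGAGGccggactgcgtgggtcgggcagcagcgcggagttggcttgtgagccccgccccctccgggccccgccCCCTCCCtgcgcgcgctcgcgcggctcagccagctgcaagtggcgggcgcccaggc
EGFR, second start, chr7:55109589-55109838, plus strand: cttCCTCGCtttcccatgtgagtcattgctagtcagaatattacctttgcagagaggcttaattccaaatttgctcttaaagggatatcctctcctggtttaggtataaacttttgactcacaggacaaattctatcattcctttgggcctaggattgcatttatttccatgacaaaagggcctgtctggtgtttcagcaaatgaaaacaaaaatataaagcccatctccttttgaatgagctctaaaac
RET, second start, chr10:43104515-43104764, plus strand: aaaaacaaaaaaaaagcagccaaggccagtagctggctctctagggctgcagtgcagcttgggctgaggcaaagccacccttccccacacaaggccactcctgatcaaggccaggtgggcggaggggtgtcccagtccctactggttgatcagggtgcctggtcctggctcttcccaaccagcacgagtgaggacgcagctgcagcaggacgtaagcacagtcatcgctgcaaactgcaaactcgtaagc
The peak at the ALK start was centred 2.38 kb inside the gene, that at EGFR 2.56 kb after its second start, and that at RET 1.24 kb before its second start. The ALK stretch is 71.6% GC, and the EGFR and RET stretches are 38.8% and 58.0%, with a median of 58.0% over all promoters.

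The letters were searched on both strands of the 250 bases, with overlapping matches counted apart. GCGAGG was present before 5 of the 11 starts, in 4 of the 8 genes, and before 18.8% of all 35116 starts. CTAATG, another motif that the authors took from the peaks, was present before 0 of the 11 and 5.57% of all starts. CCCTCCC was present before 4 of the 11, namely the first EGFR start, both ALK starts and NRAS, and before 24.7% of all starts. Besides the ALK and EGFR stretches above, GCGAGG was found near the first EGFR start and the starts of MET and RET, shown as 30 bases around the match.
EGFR, first start, chr7:55018905-55018934, plus strand: ctcctccctcctCCTCGCattctcctcctc
MET, chr7:116672166-116672195, plus strand: actaggggacggacagcacGCGAGGcagac
RET, first start, chr10:43077039-43077068, plus strand: ctccggcgcagccggcgcttaCCTCGCttc
The peaks nearest to these starts were 93.3 kb, 48.8 kb and 7.68 kb away, so the letters at these places had no peak beside them.

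**Figure D1:**
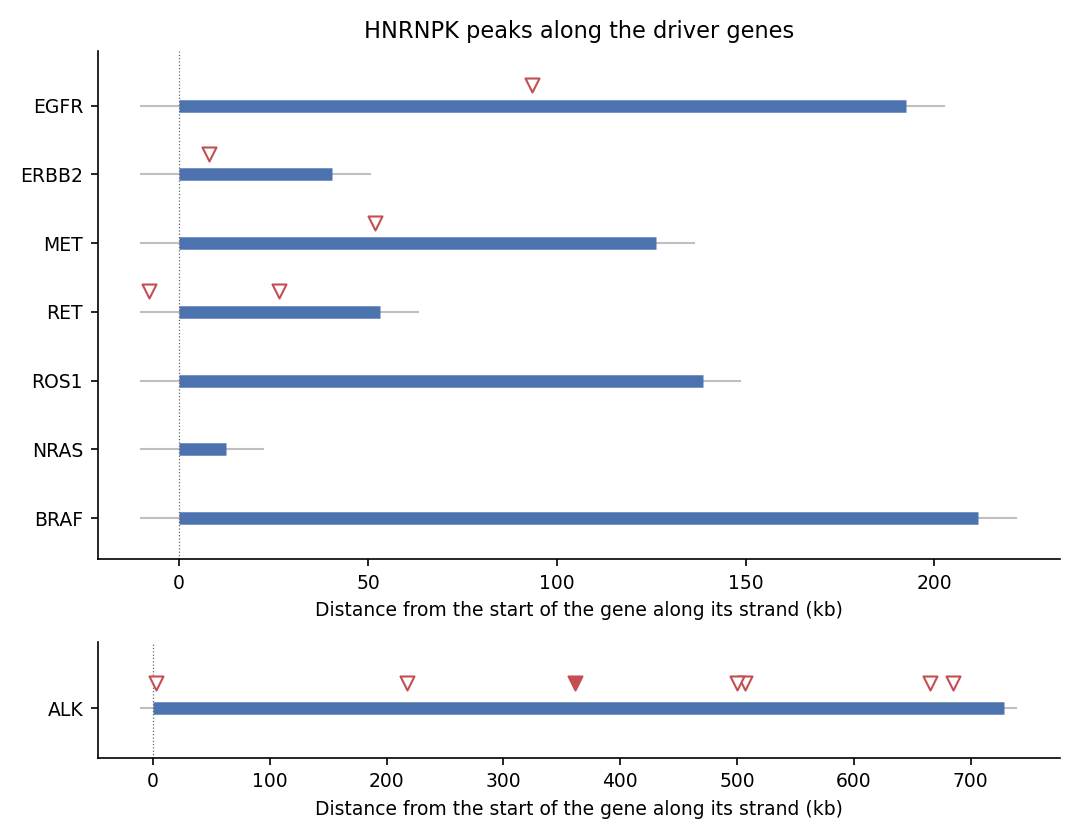
Position of the peaks along 8 of the driver genes, with the distance from the gene start along the strand in kb on the x axis; blue bars are gene spans, grey lines the 10 kb to either side, and triangles the peak centres, filled where the FDR was under 0.05. ALK has an axis of its own, and FGFR1, with 0 peaks and no strand in the table, is not drawn; the peaks of EGFR, MET and RET inside the gene lay 26.5 to 93.4 kb from the start.

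Among the receptors of the ERBB family, EGFR binds EGF and related ligands and ERBB2 is its partner without a ligand of its own. EGFR (chr7:55019017-55211628, plus strand) had 1 peak, at chr7:55112281-55112513, 93.4 kb from the first start and 48.5% of the way along the gene. Its Length was 233 bp and its Pileup, the IP coverage in scaled fragments, was 6.81, which corresponds to 7 fragments. Its fold enrichment, the ratio of Pileup plus 1 to local background plus 1, was 3.82 with an FDR of 0.290. The EGFR window of 212.6 kb thus had 0.470 peaks per 100 kb (exact Poisson 95% interval, 0.0119 to 2.62), where chromosome 7 had 1.00. The ratio of 0.469 (0.0119 to 2.61) did not differ from 1 beyond counting error. ERBB2 (chr17:39688094-39728658, plus strand) had 1 peak at chr17:39695829-39696061, 7.85 kb from the start, with a Length of 233 bp, a Pileup of 7.79, a fold enrichment of 4.02 and an FDR of 0.140. Its window of 60.6 kb had 1.65 peaks per 100 kb (0.0418 to 9.20), beside 1.59 for chromosome 17, a ratio of 1.04 (0.0263 to 5.78). With 1 peak the ratio turned with the setting, to 0.447 with 50 kb around the span and 2.06 against the 500 kb to either side of the window, a comparison chosen after seeing the data. The next peaks were far off, 491.6 kb below the gene in CACNB1, a calcium channel subunit, and 245.6 kb above it in GSDMA, a gasdermin.

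MET, the receptor of hepatocyte growth factor, lies on the same chromosome as EGFR (chr7:116672196-116798377, plus strand). Its 1 peak, at chr7:116724075-116724307, was 52.0 kb from the start, 41.2% of the way along the gene, and had a Length of 233 bp, a Pileup of 7.79, a fold enrichment of 4.06 and an FDR of 0.134. The window of 146.2 kb had 0.684 peaks per 100 kb (0.0173 to 3.81), a ratio of 0.682 (0.0173 to 3.80) to the chromosome. In the 500 kb to either side of the window there were 2 peaks, fewer per length than in MET itself, and against them the ratio was 3.42. The nearer of them lay in COMETT, a long non-coding RNA gene, 49.0 kb from MET.

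RET is the signalling receptor for ligands of the GDNF family and is rearranged in some lung tumours (chr10:43077069-43130351, plus strand). Its window had 2.73 peaks per 100 kb over 73.3 kb (0.331 to 9.86), against 0.622 for chromosome 10. This was the highest density among the 9 windows, but over the gene spans alone ERBB2 was denser, with 2.47 peaks per 100 kb against 1.88 for RET. The ratio of 4.39 rested on 2 peaks, and its interval, 0.532 to 15.9, held 1. Of the protein-coding genes on the chromosome, 16.6% were as dense or denser. The peak inside the gene, at chr10:43103409-43103641, was 49.7% of the way along it, with a Length of 233 bp, a Pileup of 5.84, a fold enrichment of 3.34 and an FDR of 0.640. The other, at chr10:43068832-43069137, overlapped no gene and lay 7.93 kb before RET, just inside the limit of 10 kb. It had a Length of 306 bp, a Pileup of 7.79, a fold enrichment of 4.24 and an FDR of 0.101. The 500 kb to either side of the window held 13 peaks, or 1.30 per 100 kb, so the region as a whole was denser than its chromosome, and against it the ratio for RET was 2.10.

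ALK, a receptor that is silent in most adult tissues and is activated in lung cancer by fusion, accounted for 7 of the 12 peaks. It is also by far the longest of the genes (chr2:29192774-29921586, minus strand), with a window of 748.8 kb. Its density of 0.935 peaks per 100 kb (0.376 to 1.93) stood beside 0.629 for chromosome 2, a ratio of 1.49 (0.598 to 3.06), and 33.6% of the protein-coding genes on the chromosome were as dense or denser. Among the 156 protein-coding genes with a window at least as long, 109 had a peak, 30 had as many peaks and 16 were as dense, with a median of 0.132 per 100 kb. The 500 kb to either side of ALK held 11 peaks, or 1.10 per 100 kb, so the gene did not exceed its own surroundings.

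In the direction of transcription, the first ALK peak was at chr2:29919025-29919388, 2.38 kb from the start, with a Length of 364 bp, a Pileup of 5.84 and FDR 0.640. The next, at chr2:29704010-29704330, was 217.4 kb in, with a Length of 321 bp, a Pileup of 6.81 and FDR 0.331. The peak at chr2:29560490-29560818 lay 360.9 kb in, near the middle of the gene, and had a Length of 329 bp, a Pileup of 8.76 from 9 fragments, a fold enrichment of 4.77 and an FDR of 0.0243. It was the strongest of the 12 by each of these measures except Length, yet 1426 peaks of the list (6.38%) had a fold enrichment as high. A pair followed at 500 and 506.7 kb, separated by 6.38 kb, at chr2:29421397-29421764 (Length 368 bp, Pileup 5.84, FDR 0.640) and chr2:29414781-29415013 (Length 233 bp, Pileup 6.81, FDR 0.290). The last 2 lay toward the end, at chr2:29256231-29256529 (Length 299 bp, Pileup 4.87, FDR 1) and chr2:29236500-29236732 (Length 233 bp, Pileup 7.79, FDR 0.101). The latter was 12.8 kb before a second listed start of ALK. These last 2 were 19.5 kb apart, so both pairs lay closer than most neighbours on the chromosome. Gaps between neighbours in ALK had a median of 141 kb and reached 214.7 kb, where neighbouring peaks of chromosome 2 had a median gap of 62.2 kb.

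The remaining receptors had no peak. ROS1, an orphan receptor for most of its history and a fusion kinase in lung cancer (chr6:117287353-117425942, minus strand), had 0 peaks in 158.6 kb, where the density of chromosome 6 gave 1.19. The nearest peak was just outside the limit, 14.2 kb beyond the end of ROS1, at chr6:117272850-117273130 in VGLL2, a cofactor of TEAD transcription factors. With a Length of 281 bp, a Pileup of 9.73, a fold enrichment of 4.85 and an FDR of 0.0119 it was stronger than any peak inside the windows. On the other side the next peak was 836.2 kb away, in SLC35F1, a solute carrier gene. The stretch without a peak across ROS1 was thus 989 kb long. Of the 1281 gaps between neighbouring peaks of chromosome 6, with a median of 56.6 kb, 19 were as long or longer. The gaps across the other drivers without a peak were 706.6 kb for NRAS, 569.4 kb for BRAF and 569 kb for FGFR1. FGFR1, a fibroblast growth factor receptor that is amplified in squamous lung cancer (chr8:38411143-38468635), had 0 peaks in 77.5 kb, where 0.470 were expected at the density of chromosome 8. Its nearest peaks were 51.9 kb above, in the long non-coding RNA gene LINC03042, and 459.6 kb below.

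Below the receptors, NRAS is the GTPase that passes their signal on and BRAF is the RAF kinase most often mutated in cancer. NRAS (chr1:114704469-114716771, minus strand) is the shortest of the 9, and its window of 32.3 kb had 0 peaks with 0.214 expected. The nearest peak at lower coordinates, with Pileup 5.84 and FDR 0.640, was 47.4 kb away in DENND2C, a regulator of RAB proteins. BRAF (chr7:140713328-140924929, minus strand) had 0 peaks in 231.6 kb, where the density of chromosome 7 gave 2.32, the largest number expected for a gene without a peak. The nearest were 75.2 kb above, with an FDR of 0.640, and 282.5 kb below, with a fold enrichment of 4.77 and an FDR of 0.0243. None of these counts of 0 differed from the chromosome density beyond counting error, since the exact Poisson interval reached 1.59 peaks per 100 kb for BRAF, 2.33 for ROS1, 4.76 for FGFR1 and 11.4 for NRAS. The list holds called peaks only, and none of them had a Pileup under 5 fragments, so weaker IP coverage at these genes would leave no entry.

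Over all 9 windows, 1741 kb in total, the density was 0.689 peaks per 100 kb (0.356 to 1.20), and all chromosomes together had 0.716. The windows of all protein-coding genes had 1.12, higher but also inside the interval. At the densities of their own chromosomes 13.9 peaks were expected, a ratio of 0.862 (0.445 to 1.51). Without ALK, a comparison chosen after seeing the data, 5 peaks were left in 992.6 kb, with 9.22 expected and a ratio of 0.543 (0.176 to 1.27). Both intervals include 1, so the driver genes were neither richer nor poorer in peaks than their chromosomes beyond counting error. The median over the 9 genes was 0.470 per 100 kb, and the median over all protein-coding genes was 0, since most had no peak.

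Whether a gene had a peak went with its length. Over all protein-coding genes the share with a peak rose from 38.8% for windows up to 50 kb to 44.1% from 50 to 100 kb, 52.4% from 100 to 200 kb and 64.2% above 200 kb. Of the driver genes, 0 of 1, 2 of 3, 1 of 2 and 2 of 3 in these classes had a peak. NRAS falls in the class of the shortest windows, and BRAF, without a peak, in that of the longest, beside EGFR and ALK.

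**Figure D2:**
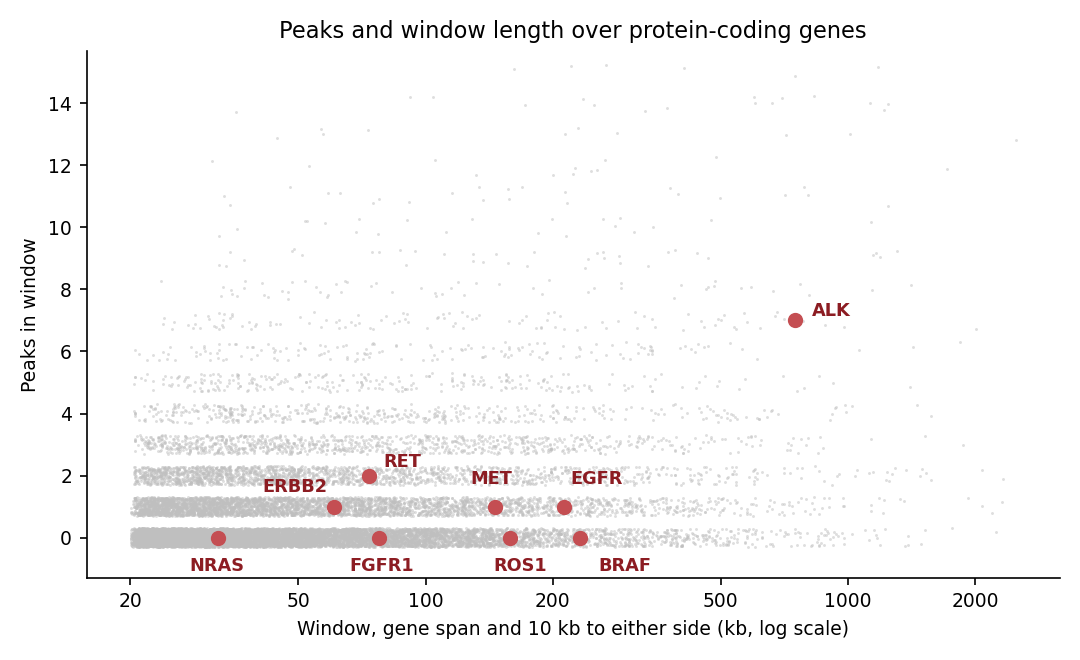
Number of peaks (y axis, grey points spread vertically for display) against window length in kb (x axis, log scale) for protein-coding genes, with the 9 driver genes in red; 22 genes with more than 15 peaks are not drawn. ALK, with 7 peaks, has a window of 748.8 kb, and the other driver genes have 0 to 2.

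The 12 peaks were low in IP coverage. Their Length ran from 233 to 368 bp (median 266 bp), and that of the whole list from 233 to 2678 bp (median 272 bp). The lowest Length was shared by 6 of the 12 (50.0%) and by 32.0% of the list. Their Pileup was 4.87 to 8.76 with a median of 6.81, below the median of 7.79 over the list, which reached 241.4, and 11 of the 12 (91.7%) were at or under that median, as were 60.3% of the list, where many values are tied. The Pileup of the peaks thus corresponds to a coverage of 5 to 9 fragments each. Their fold enrichment, 2.87 to 4.77 with a median of 3.82, was nevertheless slightly above the median of 3.58 over the list, and the local background recovered from the values was lower, with a median of 1.06 against 1.28 scaled fragments. An FDR under 0.05 was reached by 1 of the 12 (8.33%, Wilson 95% interval 1.49% to 35.4%) and by 15.5% of the list, shares that do not differ beyond counting error. The median FDR was 0.290 for the 12 peaks and for the list.

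**Figure D3:**
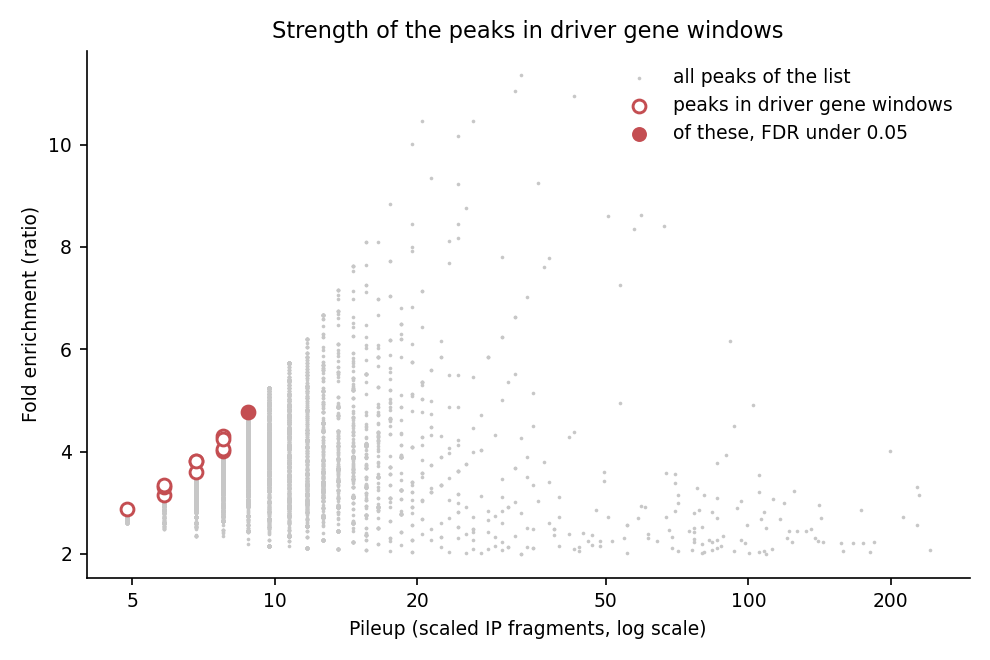
Fold enrichment against Pileup (x axis, log scale) for all peaks of the list (grey) and the 12 peaks in the driver gene windows (red circles, filled for an FDR under 0.05); peaks with equal values overlie each other. The 12 peaks lie at the low end of Pileup, 4.87 to 8.76, and near the upper edge of fold enrichment at those values.

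Other genes of the same chain were taken from 6 lists, 112 genes in all, and 63 of them (56.2%, Wilson 95% interval 47.0% to 65.1%) had a peak in the window. The share was 43.8% over all protein-coding genes, below this interval, and 55.6% over the driver genes. Per length of window there was no such excess, with 1.10 peaks per 100 kb for the 112 genes and 1.12 for all protein-coding genes. A peak with an FDR under 0.05 was present in 18 (16.1%), against 10.9% of all protein-coding genes. These differences were not tested. By role, 7 of 19 ligands, 27 of 35 other receptor tyrosine kinases, 11 of 22 adaptors and RAS regulators, 6 of 9 members of the RAS and ERK cascade, 7 of 13 feedback and scaffold genes and 5 of 14 fusion partners had a peak. The other receptors had the highest share, 77.1% (61.0% to 87.9%). Their windows had a median of 89.0 kb, against 69.3 kb for the 112 genes and 44.1 kb for all protein-coding genes, and the part of window length in these shares was not tested. Within classes of window length, the share was 59.5% against 38.8% of all protein-coding genes up to 50 kb, and 48.3% against 44.1% from 50 to 100 kb. It was 51.5% against 52.4% from 100 to 200 kb and 76.9% against 64.2% above 200 kb.

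**Figure D4:**
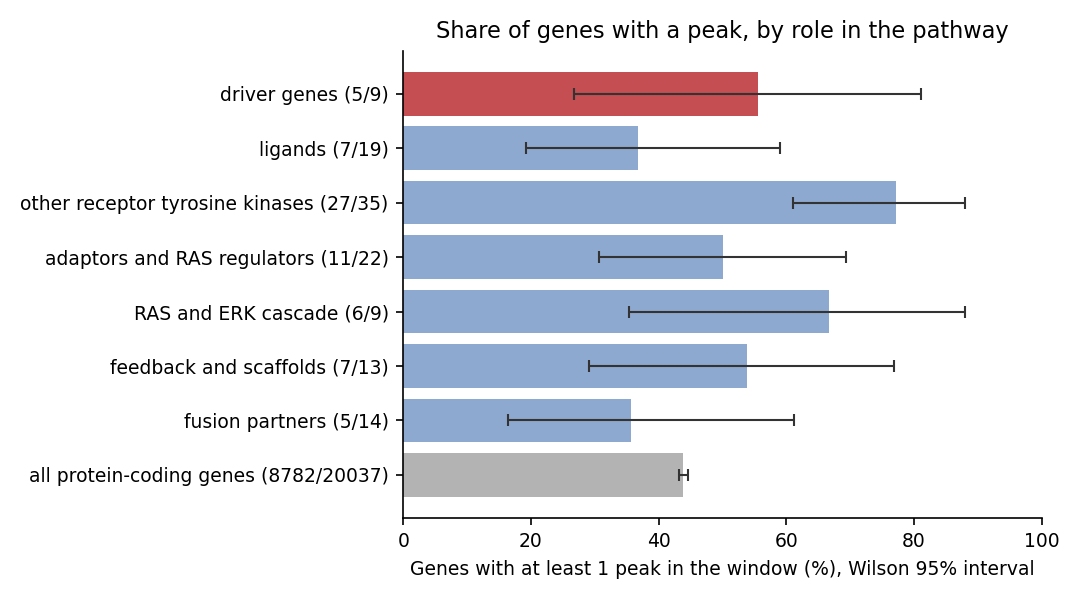
Share of genes with at least 1 peak in the window (bars, in percent, with the Wilson 95% interval) for the driver genes, the 6 lists of other pathway genes and all protein-coding genes, with counts in parentheses. The interval of the driver genes, 26.7% to 81.1%, holds the 43.8% of all protein-coding genes, and the other receptor tyrosine kinases have the highest share, 77.1%.

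Several receptors outside the 9 drivers had more peaks per length than any of the drivers. The receptors named below were chosen for their peaks out of 35. The windows of the 35 together had 1.19 peaks per 100 kb, against 1.12 for all protein-coding genes. The ratios below have no interval, and a short window needs few peaks for a high one. AREG reached 17.5 times the density of chromosome 4 with 2 peaks. AXL, a receptor tied to resistance against EGFR inhibitors, had 11 peaks in 62.5 kb, or 17.6 per 100 kb and 4.69 times the density of chromosome 19, of which 3 had an FDR under 0.05. FLT4, the VEGF-C receptor of lymphatic vessels, had 6 peaks, 13.9 times the density of chromosome 5, and the strongest single one, 727 bp long with 31 fragments, a fold enrichment of 7.80 and an FDR of 2.23e-15, outside the gene. FGFR2, a relative of FGFR1, had a peak of 823 bp with a fold enrichment of 6.20 and an FDR of 8.08e-05, 13.8 kb inside the gene. The collagen receptor gene DDR1 had 5 peaks, 2 with an FDR under 0.05, at 17.0 times the density of chromosome 6. The insulin receptor gene INSR had 7 peaks, 2 with an FDR under 0.05, but lies on peak-rich chromosome 19 and had 0.924 times its density. CSF1R, IGF1R, FGFR3 and NTRK3 each had 1 peak with an FDR under 0.05. The same held for the ligand genes AREG, which acts on EGFR, and ARTN, which acts through RET. Among adaptors and regulators PTPN11, the phosphatase SHP2, had 2 such peaks. Among feedback genes SPRED3, an inhibitor of RAS signalling with 6 peaks, and DUSP5, an ERK phosphatase, had 2 each. In the RAS and ERK cascade the scaffold KSR2 had 7 peaks and none with an FDR under 0.05. Among the RAS regulators the exchange factor RASGRF1 had 6 peaks, also none with an FDR under 0.05. All these counts are for windows. As in FLT4, the strongest peak of DDR1, INSR, FGFR3, AREG, ARTN and PTPN11 lay outside the gene, in the 10 kb beside it.

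Partner genes of the ALK, ROS1 and RET fusions were counted as well. A peak with an FDR under 0.05 lay in EML4, the usual partner of ALK (fold enrichment 4.71, FDR 0.0252), in CD74, a partner of ROS1 (4.48, 0.0275), and in EZR, another partner of ROS1 (3.83, 0.0351). Thus 3 of the 14 partners (21.4%) had such a peak, against 10.9% of all protein-coding genes, while any peak was present in 5 of the 14 (35.7%), against 43.8%. Neither difference was tested. Of the 3 kinases, ALK had 1 such peak and ROS1 and RET had none.

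Promoters of the other pathway genes were searched in the same way. Of their 147 listed starts, 6 (4.08%) had a peak over the 250 bases before them, against 1.51% over all listed starts, in AXL, EZR, GDNF, NTRK3, SHC1 and SPRED3. The stretches are shown for the 3 where that peak had an FDR under 0.05, with the same letters in capitals.
AXL, chr19:41218973-41219222, plus strand: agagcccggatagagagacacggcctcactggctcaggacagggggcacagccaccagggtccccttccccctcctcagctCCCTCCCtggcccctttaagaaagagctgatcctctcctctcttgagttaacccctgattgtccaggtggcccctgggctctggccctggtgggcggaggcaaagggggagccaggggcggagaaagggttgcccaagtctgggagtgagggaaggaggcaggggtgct
EZR, chr6:158818236-158818485, minus strand: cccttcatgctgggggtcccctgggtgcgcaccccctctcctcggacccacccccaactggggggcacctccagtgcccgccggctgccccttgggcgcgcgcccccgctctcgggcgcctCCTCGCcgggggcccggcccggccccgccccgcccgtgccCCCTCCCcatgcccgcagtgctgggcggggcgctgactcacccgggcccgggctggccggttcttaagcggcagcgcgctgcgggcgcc
NTRK3, chr15:88256740-88256989, minus strand: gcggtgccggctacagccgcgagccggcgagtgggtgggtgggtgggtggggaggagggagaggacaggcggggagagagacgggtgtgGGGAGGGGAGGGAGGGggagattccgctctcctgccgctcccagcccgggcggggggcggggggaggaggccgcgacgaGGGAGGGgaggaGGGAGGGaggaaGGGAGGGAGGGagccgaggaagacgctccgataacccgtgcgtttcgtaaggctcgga
The AXL peak, at chr19:41218962-41219250, had 16 fragments, a fold enrichment of 4.14 and an FDR of 0.00358. The EZR peak had 13 fragments and a Length of 713 bp, and that of NTRK3, a neurotrophin receptor and itself a fusion kinase, had 9 fragments, a fold enrichment of 4.51 and an FDR of 0.0409. All 3 stretches hold CCCTCCC or its complement, which stands before 24.7% of all starts. Of the 3, only the EZR stretch holds GCGAGG or its complement, which stands before 18.8% of all starts. The stretches of GDNF, SHC1 and SPRED3 are not shown, and whether the letters bear on the peaks was not tested.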

How the data were processed

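HNRNPK ChIP-seq of untreated H1299 cells comprised 1 IP and 1 input library. The submitters' processing notes name Trimmomatic 0.36, STAR 2.5.3a, MACS2, bedtools, HOMER and GRCh38, without roles or order. The deposited fold enrichment is the linear ratio of Pileup plus 1 to local background plus 1, the p-value and FDR deposited with each peak are on a linear scale, and the deposited Pileup is a coverage signal in scaled fragments. The names of the peaks spell the cell line with a first letter other than H, and the list was read as belonging to the H1299 IP.

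Peaks were overlapped with RefSeq GRCh38.p14 gene spans. Chromosome density was all peaks of a chromosome over the span between its outermost genes or peaks. Fragments were the Pileup divided by its step of 0.9735, a depth of coverage and not a count of all fragments in a peak. The local background was recovered by dividing Pileup plus 1 by the fold enrichment and subtracting 1. No p-value across conditions was computed. The members and lists were chosen with earlier results of these data known. The genes named were the 9 drivers, genes overlapping their peaks or the nearest peaks of drivers without one, pathway genes with a peak of FDR under 0.05 and the 5 with the most peaks, ties included. CACNB1, GSDMA, COMETT and the genes named only for a promoter peak, GDNF and SHC1, were added after their values were seen. Some genes that the rule names are not reported here. Sequence was taken only from the RefSeq promoter table, and exons, introns, the sequence under the peaks and the strand of FGFR1 were not used here. Python 3.11.15, numpy 2.4.6, scipy 1.17.1, pandas 2.3.3 and matplotlib 3.10.9 were used, and the overlap counts were tested on simulated data.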

Additional observations from a re-analysis of the deposited data

How the results depend on the processing

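Counting only peaks with an FDR under 0.05 left 1 driver gene with a peak, 1 peak and 0.0574 peaks per 100 kb, and it set the ratio to the chromosome to 0 for EGFR, ERBB2, MET and RET. A fold enrichment of at least 4 left 5 peaks and 0.287 per 100 kb, in 4 genes. Without ALK, chosen after seeing the data, 5 peaks remained in 4 genes. Driver genes with a peak of FDR under 0.05 numbered 2 with 50 kb around the span, where the VGLL2 peak beside ROS1 is reached, and 0 at an FDR under 0.01. These changes follow from the fewer peaks, fewer genes or wider windows counted. With the span alone there were 11 peaks in 5 genes, and with 50 kb there were 16 in 7, both within 1.5 times of the reported counts. Peak midpoints and merged peaks changed neither the 12 peaks nor the 5 genes with a peak. Ratios of single genes to their chromosome rest on few peaks and moved with the setting. For ERBB2 the ratio was 1.04, and it was 1.55 with the span alone, 0.447 with 50 kb around it and 2.06 against the 500 kb to either side. With 50 kb around the span RET went from 4.39 to 2.10, NRAS from 0 to 1.35 and ROS1 from 0 to 0.558. For MET the ratio went from 0.682 to 3.42 against the 500 kb to either side, a setting chosen after seeing the data.

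With 1 to 2 peaks in a window, the intervals of the ratios span more than an order of magnitude. The Pileup of each peak corresponds to 5 to 9 fragments. The part of sequencing depth and of gene copy number in H1299 cells was not tested.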

Other observations

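The 500 kb to either side of the windows, equal in length for all 9 genes, held different numbers of peaks. RET had 13 peaks there, BRAF 12, EGFR and ALK 11 each, ERBB2 8, NRAS 5, FGFR1 4, MET 2 and ROS1 1. The 12 peaks around BRAF made 1.20 per 100 kb, above the 1.00 of chromosome 7, but all lay outside a gap of 569.4 kb across BRAF. Of the 1596 gaps between neighbouring peaks of chromosome 7, 54 were as long or longer. ROS1 lay in a stretch with 0.100 peaks per 100 kb, against 0.751 for chromosome 6.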
